A study of Rattus norvegicus with 9 samples.

Results

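The enzymes described here are 10 peptidases and other hydrolases of the intestinal brush border: the meprin subunits Mep1a and Mep1b, neprilysin (Mme), angiotensin-converting enzyme (Ace), aminopeptidase N (Anpep), aminopeptidase A (Enpep), dipeptidyl peptidase 4 (Dpp4), intestinal alkaline phosphatase (Alpi), lactase (Lct) and sucrase-isomaltase (Si). A probe set of the rat array RG_U34A was taken when the platform annotation gave it 1 of these names and no other. This gave 18 of the 8799 probe sets, for 10 of 4736 named genes. Pregnant Sprague Dawley rats were given a diet whose protein was casein (CAS, the control), an isolate of soy protein (SPI) or a hydrolysate of whey protein (WPH). Their male offspring were weaned to the diet of the mother and kept on it throughout. Rats of all 3 diets received the colon carcinogen azoxymethane (AOM) at 15 mg/kg in 2 injections from 90 days of age, and no group without AOM was analysed here. Tissue free of tumor was taken from the proximal colon 40 weeks later. Each diet was read from 1 pool of RNA from 7 rats, and 3 targets labelled from each pool were read on 3 arrays, so that the spread between arrays is technical and p-values compare pools and not rats.

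The brush border is the carpet of microvilli on absorptive cells of the gut. Its membrane carries enzymes that finish digestion at the cell surface: endopeptidases cut within peptides, aminopeptidases and dipeptidyl peptidases shorten them from the front, and disaccharidases split sugars. In adult mammals sucrase-isomaltase, lactase and intestinal alkaline phosphatase belong mainly to the small intestine, whereas meprins are also made in the colon. Several of these proteins occur on other cells as well, such as Ace on endothelium and Dpp4 on T cells. In RNA from a whole piece of tissue, fewer cells of a type and less RNA per cell cannot be told apart.

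The sequences before the start sites of 4 members are shown because these genes carry the results that stand out, namely the fall of both meprin subunits and the high signal of 1 probe set each of Anpep and Si with SPI. Each is the 300-base window of RefSeq (GRCr8) that ends 50 bases after the start of the gene, written in the direction of the gene. Capitals mark letters of 3 short motifs searched on both strands: GTTAAT, which is a half-site of the factor HNF1, TTTATG, a site of CDX factors, and AGATAA, a site of GATA factors. The Mep1a window is chr9:24971651-24971950 on the plus strand, the Mep1b window chr18:12640791-12641090 on the plus strand, the Anpep window chr1:143195052-143195351 on the minus strand and the Si window chr2:159884853-159885152 on the minus strand.
Mep1a: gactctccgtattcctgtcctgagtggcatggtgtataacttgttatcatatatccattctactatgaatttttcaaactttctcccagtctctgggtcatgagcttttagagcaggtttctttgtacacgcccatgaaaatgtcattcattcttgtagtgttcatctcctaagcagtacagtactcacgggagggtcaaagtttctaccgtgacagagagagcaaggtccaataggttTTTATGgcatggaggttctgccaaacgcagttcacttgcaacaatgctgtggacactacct
Mep1b: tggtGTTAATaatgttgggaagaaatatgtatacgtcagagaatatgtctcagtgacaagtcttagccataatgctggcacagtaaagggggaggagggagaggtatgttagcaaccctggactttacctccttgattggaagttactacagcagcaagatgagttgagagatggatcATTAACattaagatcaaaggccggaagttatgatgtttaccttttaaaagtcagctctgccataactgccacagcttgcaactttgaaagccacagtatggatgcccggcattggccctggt
Anpep: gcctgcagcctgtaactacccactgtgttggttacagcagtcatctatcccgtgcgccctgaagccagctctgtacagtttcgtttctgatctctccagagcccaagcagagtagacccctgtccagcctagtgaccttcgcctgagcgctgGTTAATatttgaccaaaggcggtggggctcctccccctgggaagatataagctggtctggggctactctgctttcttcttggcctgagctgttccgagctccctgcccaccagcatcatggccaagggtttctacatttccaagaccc
Si: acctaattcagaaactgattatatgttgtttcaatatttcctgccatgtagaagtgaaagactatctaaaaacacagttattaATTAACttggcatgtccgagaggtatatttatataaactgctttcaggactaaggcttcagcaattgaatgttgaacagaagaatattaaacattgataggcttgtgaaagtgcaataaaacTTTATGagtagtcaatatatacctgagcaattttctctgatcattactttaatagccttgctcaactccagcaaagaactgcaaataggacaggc

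All 10 members had a window in the table. The HNF1 half-site was found in 3 of these 10 windows, those of Mep1b, Anpep and Si, against 7.45% of 33469 windows of the same length. The CDX letters were found in 3 of 10, those of Mep1a, Lct and Si, against 12.7%, and the GATA letters only in that of Lct, against 11.6%. Mep1b held the HNF1 letters at bases 5 and 179 of its window, and Si held them at base 84 and the CDX letters at base 206. The windows of Mme, Ace, Enpep, Dpp4 and Alpi held none of the 3 motifs. Base composition also differed, with 72.3% G and C for Ace, 64% for Dpp4, 43.3% for Mep1a, 43.7% for Mep1b and 33.3% for Si. These matches describe letters and were not tested for binding.

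In the proximal colon the meprins and Dpp4 fell with SPI and WPH and Ace fell with WPH, while Alpi and Lct gave low signals with no change past the threshold. A probe set was tested when any diet gave it a mean of 100 or more, which 10 of the 18 reached, for 7 of the 10 genes. The other 8 probe sets, among them all those of Mme, Enpep and Si, are given with their signals only. With WPH, 5 of the 10 tested probe sets were lower than with CAS (limma, adjusted p under 0.05), for Mep1a, Mep1b, Ace and Dpp4, where 17.9% of the 5606 probe sets tested on the array were lower. None of the 10 was higher, at an adjusted or an unadjusted p under 0.05 or by the methods' t-test, where 20.9% of all were higher. With SPI, 4 of the 10 were lower, for Mep1a, Mep1b and Dpp4, against 10.2% of all, and 1 was higher, for Anpep, against 12%. This Anpep probe set passed the minimum through SPI alone, so that its highest mean with SPI was set by the filter. The median log2 change of the 10 was -0.42 with WPH and -0.15 with SPI, beside 0.060 and -0.012 over all probe sets tested. The comparisons with CAS use the same 3 CAS arrays.

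**Figure D1:**
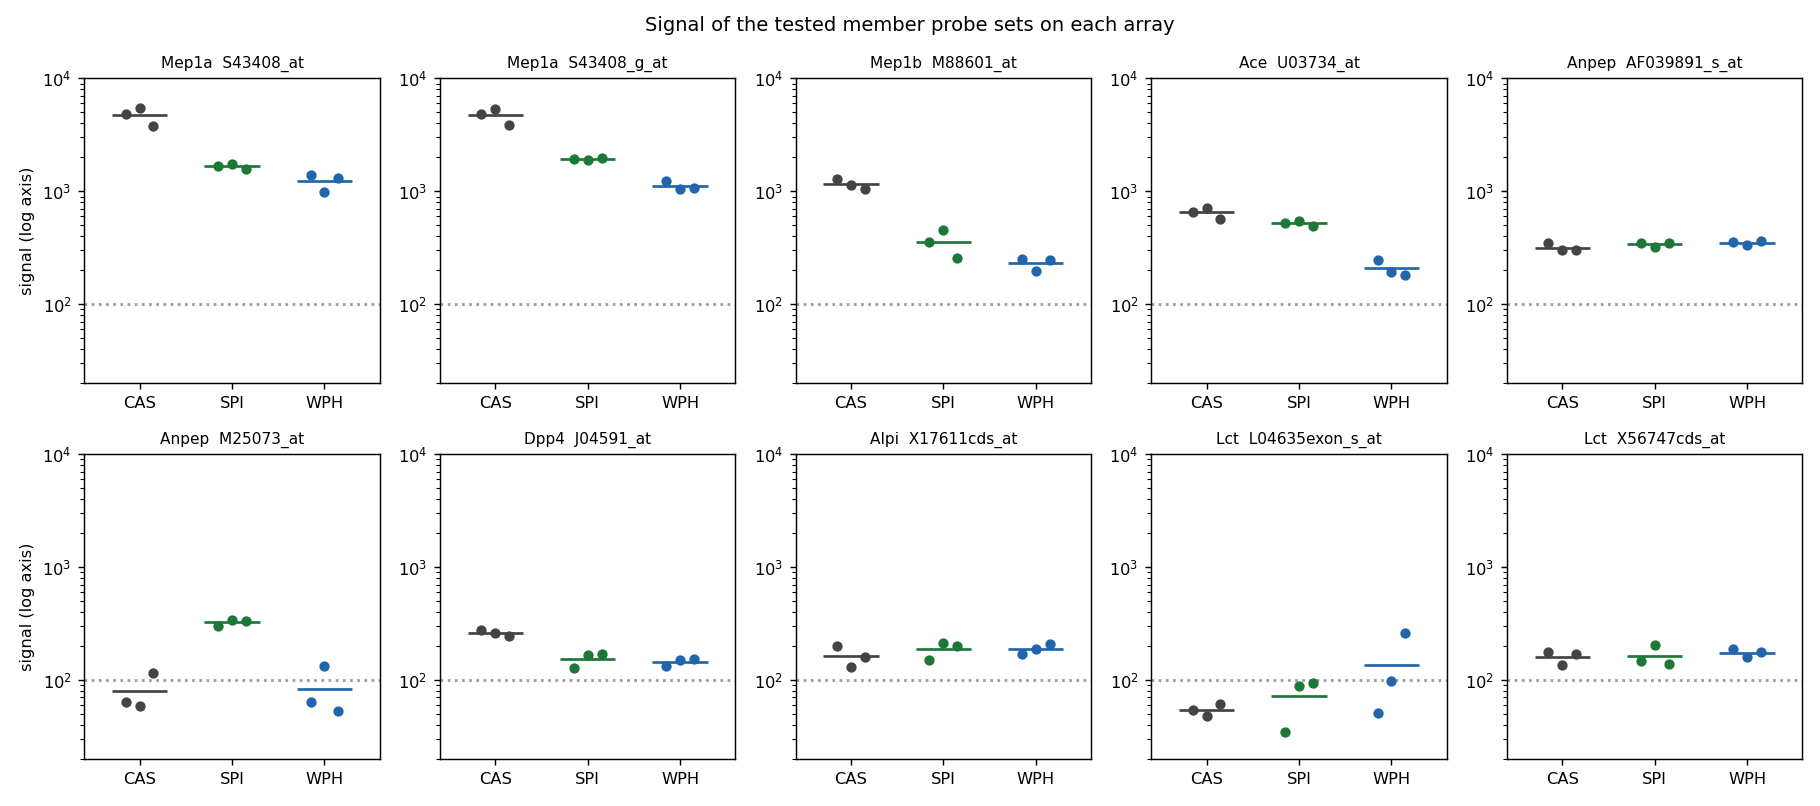
Signal of each tested probe set of the brush border enzymes on the 3 arrays of each diet (points, with the mean as a line), on a log axis, with the level of 100 dotted. Both meprin subunits, Ace and Dpp4 sit highest with CAS, and Anpep on M25073_at sits at 302 to 338 with SPI and at 52.9 to 133 otherwise.

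The arrays were alike in range, with a signal of at least 100 for 58.6 to 60.2% of probe sets on each. Some features of the hybridizations ran along with diet. The 3' to 5' signal ratio of the β-actin control, a measure of how complete the labelled RNA was, was 1.83 to 1.88 for CAS, 2.14 to 2.36 for SPI and 2.53 to 3.50 for WPH. The same ratio of the GAPDH control did not follow diet, at 1.34 to 1.71, 1.48 to 1.65 and 1.57 to 1.70. The instrument settings give a hybridization time for each array. Sorted by clock time alone, with a gap of over 30 minutes starting a new group, the arrays fell into 3 groups, here called wash rounds. No record of washing was used. Round 1 held the CAS arrays and WPH replicate 2, round 2 held the remaining WPH arrays with SPI replicates 1 and 2, and round 3 held SPI replicate 3. The part of the β-actin ratio in the results was not tested, and values within a round are given beside the main results.

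Meprin α (Mep1a) and meprin β (Mep1b) are the subunits of a zinc endopeptidase of the astacin family, with the β subunit anchored in the membrane. Both fell with SPI and with WPH. Mep1a was read by 2 probe sets of the same transcript, which are not independent of each other. On S43408_at its signals were 4814, 5466 and 3829.8 with CAS, 1676, 1753 and 1576 with SPI, and 1395, 988 and 1310 with WPH. On S43408_g_at they were 4859.7, 5351 and 3897 with CAS, 1924, 1887 and 1973 with SPI, and 1246, 1041 and 1068 with WPH. The 3 diets did not overlap on either probe set, with CAS highest and WPH lowest. The mean on S43408_at was 4703 ± 824 (SD, n = 3 arrays) for CAS, 1668 ± 88.4 for SPI and 1231 ± 215 for WPH. The signal was 3.82-fold lower with WPH (log2 change -1.93, SE 0.15, limma adjusted p = 2.03e-06) and 2.82-fold lower with SPI (log2 change -1.48, SE 0.15, limma adjusted p = 4.89e-05). On S43408_g_at the falls were 4.20-fold and 2.44-fold (limma adjusted p = 2.51e-07 and 2.53e-05).

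Mep1b gave signals of 1294, 1138 and 1055 with CAS, 355, 455 and 256.5 with SPI, and 251.5, 198 and 248 with WPH. Every SPI and WPH array was far under the CAS arrays, and the lowest SPI array came close to the WPH arrays without overlapping them. The signal was 5.0-fold lower with WPH (log2 change -2.32, SE 0.19, limma adjusted p = 3.35e-06) and 3.27-fold lower with SPI (log2 change -1.74, SE 0.19, limma adjusted p = 9.03e-05). Within wash round 1, WPH replicate 2 lay below the mean of the CAS arrays by a log2 difference of -2.24 and -2.16 for the Mep1a probe sets and -2.55 for Mep1b, as large as over all arrays. With wash round as a block, the changes with SPI were -1.89 and -1.44 for Mep1a and -1.86 for Mep1b (limma adjusted p = 0.00412, 0.015 and 0.00656). SPI shared no round with CAS, so that this fit compares them by way of WPH.

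Whether the meprins were lower with WPH than with SPI was less clear. Mep1a on S43408_g_at was 1.72-fold higher with SPI than with WPH (log2 change 0.79, limma adjusted p = 0.000883). On S43408_at the log2 difference was 0.45, with a 95% interval of 0.12 to 0.79, and for Mep1b it was 0.58, with an interval of 0.15 to 1.01. Neither passed the threshold (limma adjusted p = 0.058 and 0.0585), though all 9 array pairs were higher with SPI for each. In this comparison 3 of the 10 probe sets were higher with SPI, for Anpep, Mep1a and Ace, against 10.1% of all. The Anpep probe set passed the minimum through SPI alone, so that its highest mean with SPI was set by the filter. None of the 10 was lower, adjusted or not and by the methods' t-test, against 9.83% of all, and the median log2 difference of the 10 was 0.27 beside -0.079 over all.

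**Figure D2:**
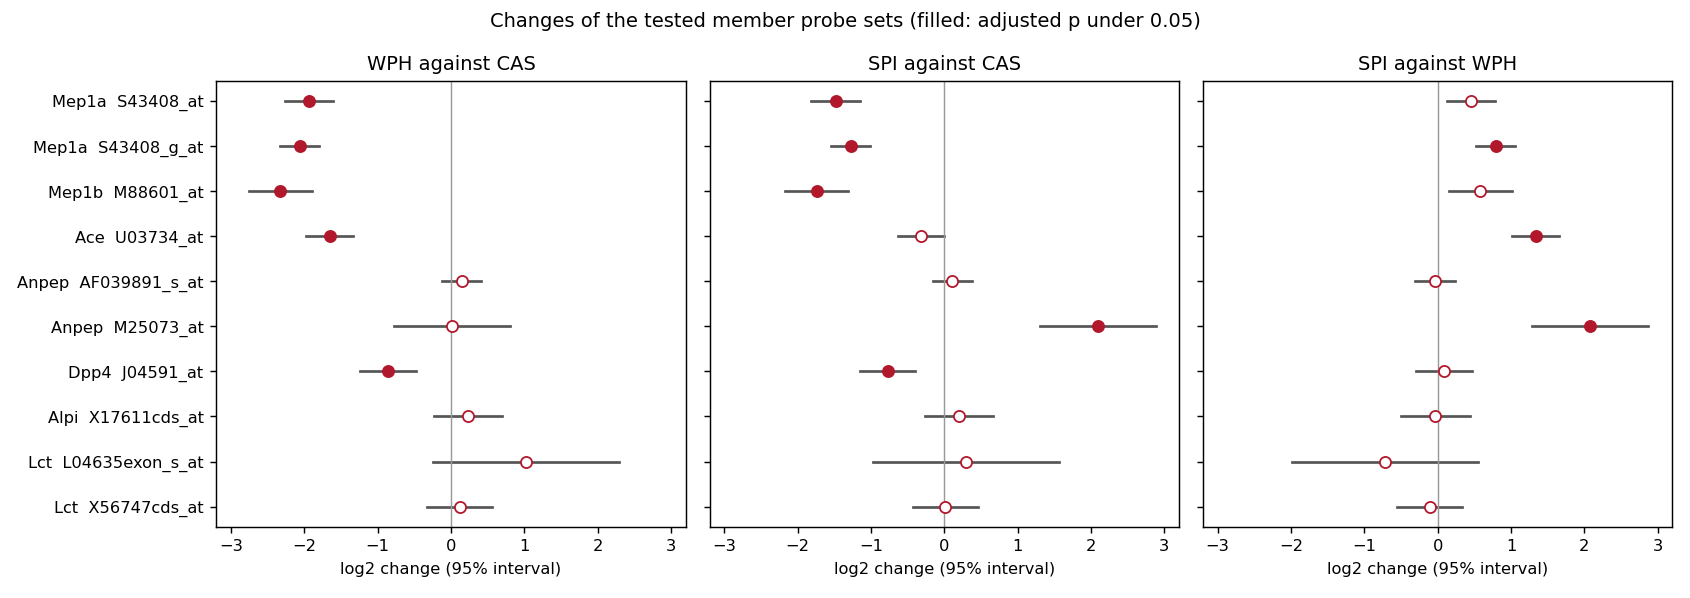
Log2 change of each tested probe set with its 95% interval, for each pair of diets (WPH and SPI each over CAS, and SPI over WPH), with filled points at an adjusted p under 0.05. The meprins lie between -2.32 and -1.27 against CAS in both diets, Ace is at -1.65 with WPH and -0.32 with SPI, and Anpep on M25073_at has the highest point against CAS with SPI, at a fitted 2.10 that is read against CAS signals mostly under 100.

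Neprilysin (Mme), a zinc endopeptidase that inactivates many signalling peptides, was near the floor of the array. Its signals ran from 5.8 to 97.4 on M15944_at and from 5.6 to 30.6 on rc_AA894298_s_at, with overlapping diets, and no fold is given at these levels.

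Ace removes a pair of residues from the end of peptides and is best known for making angiotensin II. It fell with WPH and remained close to the CAS level with SPI. The signals on U03734_at were 659, 719 and 574 with CAS, 523, 545 and 489.5 with SPI, and 246, 193 and 183 with WPH. All WPH arrays were far below all others, and the highest SPI array lay just under the lowest CAS array. Ace was 3.14-fold lower with WPH (log2 change -1.65, SE 0.14, limma adjusted p = 4.33e-06). With SPI the log2 change was -0.32, with an interval of -0.64 to -0.0033 before adjustment, and did not pass the threshold (limma adjusted p = 0.145). SPI and WPH differed by 2.5-fold (log2 change 1.33, SE 0.14, limma adjusted p = 7.71e-05). Within wash round 1 the log2 difference of WPH to CAS was -1.75, and within round 2 that of SPI to WPH was 1.33. A further probe set, L36664_s_at, was left out because the annotation gives it both Ace3 and Ace. It read 174, 149 and 136.5 with CAS, 68, 104.5 and 89.1 with SPI, and 38.8, 109 and 39 with WPH, with a WPH array far from the other WPH arrays and most SPI and WPH signals under 100. It was called lower with WPH (limma adjusted p = 0.01225), at least 1.49-fold with arrays under 100 counted as 100. With SPI it did not pass the threshold (limma adjusted p = 0.176).

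Aminopeptidase N (Anpep), which takes neutral residues from the front of peptides, gave readings that depended on the probe set. On M25073_at the signals were 64, 58.9 and 115 with CAS, 302, 338 and 334 with SPI, and 63.7, 133 and 52.9 with WPH. All SPI arrays were above all others, and CAS and WPH overlapped around the level of 100. The probe set passed the minimum through SPI alone, and 2 of 3 arrays were under 100 with each of CAS and WPH. With arrays under 100 counted as 100, the SPI mean was at least 3.09-fold that of CAS (limma adjusted p = 0.00157) and at least 2.92-fold that of WPH (limma adjusted p = 0.00196). No fold is given between WPH and CAS.

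On AF039891_s_at, by contrast, the Anpep signals were 349.6, 301.5 and 301 with CAS, 349.7, 324.5 and 352 with SPI, and 354, 337 and 361 with WPH. The diets overlapped, and the log2 change with SPI was 0.11 with an interval of -0.16 to 0.38. The third Anpep probe set, AF039890mRNA_s_at, stayed between 16.2 and 41.8 on every array. The rise with SPI is therefore that of 1 of 3 probe sets. Within wash round 2 the SPI arrays read 302 and 338 on M25073_at and the WPH arrays 63.7 and 52.9. In a fit blocked on wash round the log2 change against CAS was 3.28 (limma adjusted p = 0.0132), beside 2.10 without the block. SPI shared no round with CAS, so this fit reaches CAS by way of WPH replicate 2 alone. That array read 133, far from the other WPH arrays, and the blocked value rests on it. Aminopeptidase A (Enpep), which takes acidic residues, was between 7.3 and 47.6 on S73583_at, and no fold is given.

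Dpp4 removes dipeptides from the front of peptides, among them the gut hormones GLP-1 and GIP. It fell by a like amount with both diets. The signals on J04591_at were 279, 261 and 247 with CAS, 129, 166 and 169 with SPI, and 132, 149 and 153 with WPH. The CAS arrays were above all others, and SPI and WPH overlapped. The fall was 1.81-fold with WPH (log2 change -0.86, SE 0.17, limma adjusted p = 0.00196) and 1.70-fold with SPI (log2 change -0.77, SE 0.17, limma adjusted p = 0.00777). The fall with SPI was no longer called in a fit blocked on wash round (limma adjusted p = 0.255), although its log2 change was -0.77 there too. SPI and WPH differed by a log2 value of 0.087, with an interval of -0.29 to 0.46. The second probe set, rc_AA892069_s_at, ran from 13.5 to 55.3 and gives no fold.

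Intestinal alkaline phosphatase (Alpi), which removes phosphate from nucleotides and bacterial lipopolysaccharide, gave no change past the threshold. Its signals on X17611cds_at were 202, 129.9 and 160 with CAS, 149, 212.5 and 199 with SPI, and 171, 188 and 209 with WPH, with all diets overlapping. The log2 change was 0.23 with WPH, with an interval of -0.24 to 0.70, and 0.20 with SPI, with an interval of -0.27 to 0.67.

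Of the disaccharidases, lactase (Lct), which splits milk sugar, was read by 2 probe sets. On X56747cds_at the signals were 176, 136 and 170.2 with CAS, 148, 205 and 138 with SPI, and 186, 160.1 and 176 with WPH, all overlapping, with log2 changes of 0.12 with WPH and 0.012 with SPI. On L04635exon_s_at most arrays were under 100. The signals were 53.8, 48.2 and 60.7 with CAS, 34.7, 89.2 and 94.4 with SPI, and 50.8, 98.8 and 261 with WPH, so that only WPH replicate 3 carried this probe set past the minimum. Its fitted log2 change with WPH, read against CAS signals under 100, was 1.02, with an interval of -0.25 to 2.28 (limma adjusted p = 0.19), and without WPH replicate 1 it was 1.57 (limma adjusted p = 0.0421).

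Sucrase-isomaltase (Si), which splits sucrose and starch fragments, reached a signal of 100 on 2 SPI arrays only, and on 1 of its 3 probe sets. On L25926_at the signals were 2.6, 3.1 and 2.1 with CAS, 119, 52.2 and 124 with SPI, and 2.3, 2.3 and 4.1 with WPH. The SPI mean of 98.3 ± 40 (SD, n = 3 arrays) fell just short of the minimum of 100, so the probe set was not tested and no fold is given. All SPI arrays were above all CAS and WPH arrays. The other Si probe sets, M62889_s_at and X15546cds_s_at, ran from 2.9 to 25.9 and from 1.3 to 7.3.

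**Figure D3:**
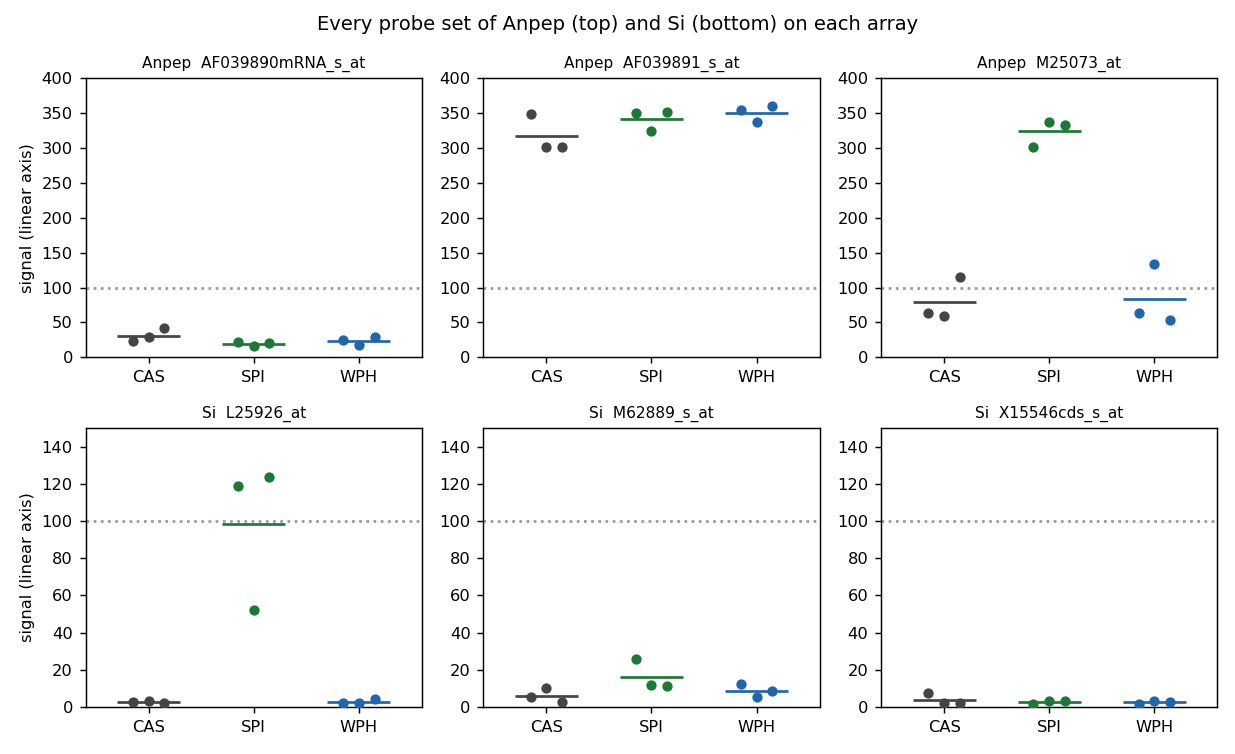
Signal of all 3 probe sets of Anpep (top) and of Si (bottom) on each array, on linear axes, with means as lines and the level of 100 dotted. Only M25073_at and L25926_at separate SPI from the other diets, at 302 to 338 and 52.2 to 124.

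The markers of the cells that carry a brush border moved with diet as well. A list of 20 epithelial genes, such as the adhesion molecule Epcam and the keratins, had 16 on the array, all tested. All 16 were lower with WPH and 10 were lower with SPI, against 17.9% and 10.2% of all, with median log2 changes of -1.99 and -0.73. Their summed signal ran from 85558 to 91505 for CAS, 54353 to 56727 for SPI and 26464 to 28130.1 for WPH, and none was under 100 on all arrays. Of 9 smooth muscle genes, 8 were higher with each diet, against 20.9% of all with WPH and 12% with SPI. Their median log2 changes were 1.01 and 0.50, with a summed signal of 103635 to 107890.2 with CAS, 149619 to 151974 with SPI and 199744 to 228341 with WPH. Epithelial and muscle genes were thus bright in every diet. The part of these shifts in the results for the enzymes was not tested.

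Set against these markers on the same array, the enzymes separated into groups. The mean log2 signal of the 16 epithelial markers changed by -1.99 with WPH and -0.66 with SPI. Single markers differed widely, with log2 changes of -3.61 to -0.53 with WPH and -1.71 to 0.10 with SPI. Mep1a lost about as much as the marker mean with WPH, with a difference of its log2 change from that mean of 0.051 and -0.079 for its probe sets. With SPI it lost more than the mean, at -0.83 and -0.62. Its own log2 changes with SPI, -1.48 and -1.27, were within the range of single markers, and that of Mep1b, -1.74, was just below it. Mep1b differed from the markers by -0.34 with WPH and -1.09 with SPI, and Ace by 0.33 and 0.34. Dpp4 differed by 1.13 with WPH and by -0.12 with SPI. Alpi, Lct on X56747cds_at and Anpep on AF039891_s_at, which kept their signals while the markers were lower, differed by 2.21, 2.11 and 2.13 with WPH and by 0.86, 0.67 and 0.77 with SPI. Alpi and Lct lay at 129.9 to 212.5 and 136 to 205, close to the level of 100, where a signal may hold little of its own transcript. These differences are descriptions with no test, and a ratio within an array shows unequal change and not which side changed.

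**Figure D4:**
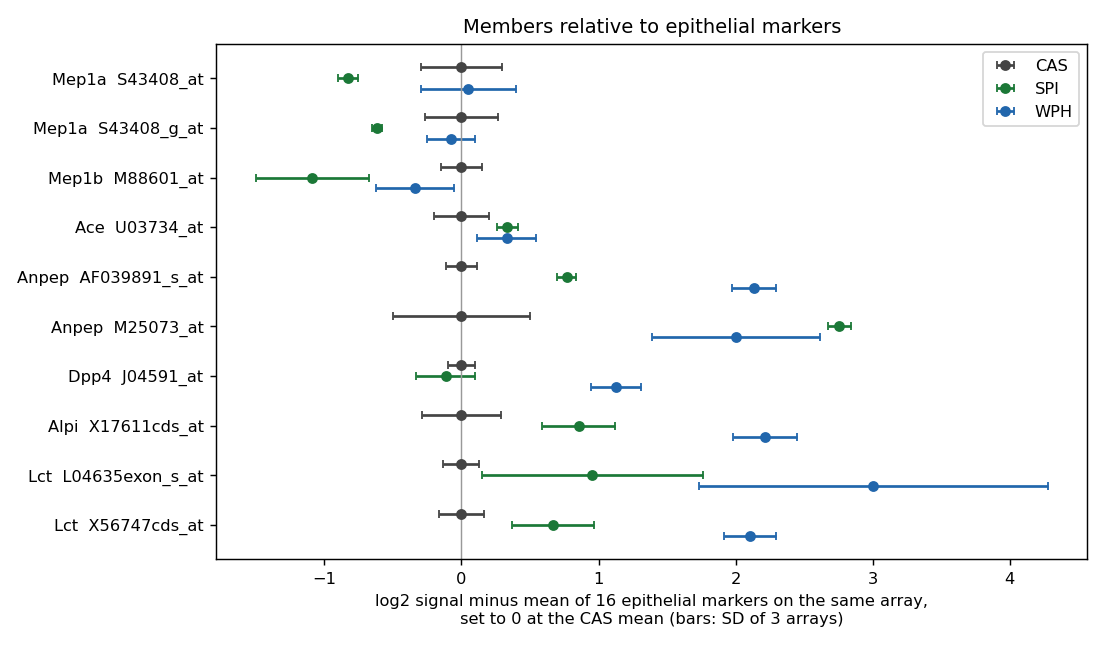
Log2 signal of each tested probe set minus the mean of 16 epithelial markers on the same array, set to 0 at the CAS mean, with bars for the SD of 3 arrays. With SPI the meprins lie at -1.09 to -0.62, and with WPH they lie at -0.34 to 0.051 while Alpi, Lct on X56747cds_at and Anpep on AF039891_s_at lie at 2.11 to 2.21. Anpep on M25073_at and Lct on L04635exon_s_at had CAS means under 100, and their positions carry no exact value.

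Other tissue markers were read for the same reason. Of 13 leukocyte genes on the array 12 were tested. With WPH 8 of them were higher and 1, Cd52, was lower, against 20.9% and 17.9% of all. With SPI 3 were higher and 1, Cd52, was lower, against 12% and 10.2%. The summed signal of the list was 13043 to 13299.7, 11796 to 12361 and 12857 to 13502 with CAS, SPI and WPH. This sum holds Cd52, at a mean of 3419 with CAS and 11.2 and 11.9 with SPI and WPH. It therefore does not show the change of the other genes. Cd52 passed the minimum through CAS alone. Endothelial genes, of interest for Ace, gave 1 higher of 5 tested with each diet, near the 20.9% of all with WPH and beside 12% with SPI. Their sums were 1142 to 1407, 1214 to 1587 and 1375 to 1876 with CAS, SPI and WPH. Of 10 genes of the male reproductive tract on the array, 4 were tested, all 4 lower with WPH and 3 with SPI, against 17.9% and 10.2% of all. The sum of the list was 2871 to 3108 with CAS, 491 to 648 with SPI and 382 to 598 with WPH. Of that list 5 were under 100 on all arrays, among them Gpx5, a defining gene of the epididymis, at a mean of 4.07 with CAS, whereas Adam7, another one, gave 1711 ± 55.0 (SD, n = 3) with CAS and 122 ± 36.1 and 144 ± 62.3 with SPI and WPH. Of the 4 tested genes, Smcp and Wfdc6a passed the minimum through CAS alone, so that their highest mean with CAS was set by the filter. Svs4 and Adam7 also had their highest mean with CAS, as had the meprins and Dpp4. The part of these 4 genes in the results was not tested.

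Structural genes of the microvillus fell with the meprins. Of 8 brush border scaffold genes on the array 5 were tested, and 5 were lower with WPH and 4 with SPI, against 17.9% and 10.2% of all. Their median log2 changes were -1.99 and -0.67. The sodium-proton exchanger Slc9a3, a carrier of the apical membrane, went from 1515 ± 143 (SD, n = 3) with CAS to 966 ± 144 with SPI and 206 ± 9.40 with WPH (log2 change -2.88 with WPH, limma adjusted p = 4.53e-08). The brush border myosin Myo1a went from 324 ± 43.6 to 112 ± 43.5 and 19.7 ± 3.35, at least 3.24-fold lower with WPH when signals under 100 count as 100 (limma adjusted p = 2.23e-06). Ezrin (Ezr), which ties the membrane to actin, fell with WPH (log2 change -1.25, limma adjusted p = 3.33e-05) and had a log2 change of -0.37 with SPI (limma adjusted p = 0.0869).

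Among 8 further hydrolases of the brush border on the array only 3 were tested, and they did not move together. Dipeptidase 1 (Dpep1), which splits dipeptides at the membrane, moved as the meprins did, from 704 ± 12.2 (SD, n = 3) with CAS to 203 ± 33.4 with SPI and 141 ± 35.7 with WPH (log2 change -1.81 and -2.35, limma adjusted p = 5.95e-05 and 2.69e-06). The nucleotide pyrophosphatase Enpp3 rose with SPI, from 166 ± 31.1 to 483 ± 52.5 (log2 change 1.55, limma adjusted p = 0.000131), and had a log2 change of 0.46 with WPH (limma adjusted p = 0.069). Alkaline phosphatase of other tissues (Alpl) rose with both diets, with log2 changes of 0.74 and 0.67 with WPH and SPI (limma adjusted p = 0.00187 and 0.00721). Trehalase, Folh1, Naaladl1, Ggt1 and Plb1 had means under 100 in all diets.

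Of 9 carriers on the array that take up the products of such enzymes 6 were tested, with 1 lower with WPH, the glucose carrier Slc2a1 (log2 change -1.05, limma adjusted p = 0.00127), and 1 higher with SPI, the sodium-glucose carrier Slc5a1. These shares of 1 in 6 are near those over all probe sets, 17.9% lower with WPH and 12% higher with SPI. Slc5a1, chosen after its values were seen, gave 385 ± 40.3 (SD, n = 3) for CAS, 690 ± 89.9 for SPI and 405 ± 48.1 for WPH (limma adjusted p = 0.00165 for SPI). The peptide carrier Slc15a1, picked in the same way, was under the minimum, at means of 35.2, 77.5 and 71.9 with CAS, SPI and WPH. Of 15 tested peptidases of the cytosol, lysosome and secretory path, 3 were lower and 3 higher with WPH, and 1 lower and 4 higher with SPI, with medians of -0.20 and 0.12. Over all probe sets 17.9% were lower and 20.9% higher with WPH, near the counts here, and 10.2% and 12% with SPI. Cathepsin B (Ctsb), a lysosomal protease, fell with WPH (log2 change -0.93, limma adjusted p = 1.67e-06), and the carboxypeptidase Cpq rose (log2 change 1.26, limma adjusted p = 5.21e-06).

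Genes of small intestinal absorptive cells gave a mixed result with SPI. Of 12 tested, 5 were higher and 2 lower with SPI, and 1 was higher and 5 lower with WPH. Over all probe sets 12% were higher and 10.2% lower with SPI, and 20.9% and 17.9% with WPH. The cytochrome Cyp3a9 fell with WPH (log2 change -2.80, limma adjusted p = 2.26e-08) and had a log2 change of 0.082 with SPI (limma adjusted p = 0.673). Fabp1 and Fabp2, fatty acid binding proteins, fell with both diets, with log2 changes of -1.21 and -2.14 with SPI (limma adjusted p = 2.32e-05 and 0.00119). Apoa1, an apolipoprotein of absorptive cells, rose with SPI and fell with WPH, at log2 changes of 1.32 and -1.31 (limma adjusted p = 8.64e-05 and 3.09e-05). The retinol carrier Rbp2, chosen after its values were seen, read 91.7 ± 17.0 (SD, n = 3) for CAS, 469 ± 34.7 for SPI and 24.2 ± 12.46 for WPH (limma adjusted p = 0.000599 for SPI against CAS, at least 4.52-fold with arrays under 100 counted as 100). Rbp2 passed the minimum through SPI alone, so that its highest mean with SPI was set by the filter. The 5 higher ones were Apoa1, Rbp2, Slc5a1 and, also chosen after their values were seen, Apob and Apoa4. These are named because they were higher with SPI, and M25073_at of Anpep and L25926_at of Si were singled out for their SPI signals. That all of them were high with SPI follows from this choice and is no further result. The part of such cells was not tested. Of 5 intestinal transcription factors tested, 4 were lower with WPH and 3 with SPI, against 17.9% and 10.2% of all. Among them Cdx1 gave 303 ± 23.2, 79.8 ± 32.01 and 38.2 ± 19.2 (SD, n = 3) with CAS, SPI and WPH (limma adjusted p = 0.00308 and 6.49e-05 for SPI and WPH), or at least 2.88-fold and 3.03-fold lower when signals under 100 count as 100. Cdx1 passed the minimum through CAS alone, so that its highest mean with CAS was set by the filter, and both counts include it. The liver and gut factor Hnf4a was at least 2.03-fold lower with WPH, where all arrays were under 100 (limma adjusted p = 0.000652).

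**Figure D5:**
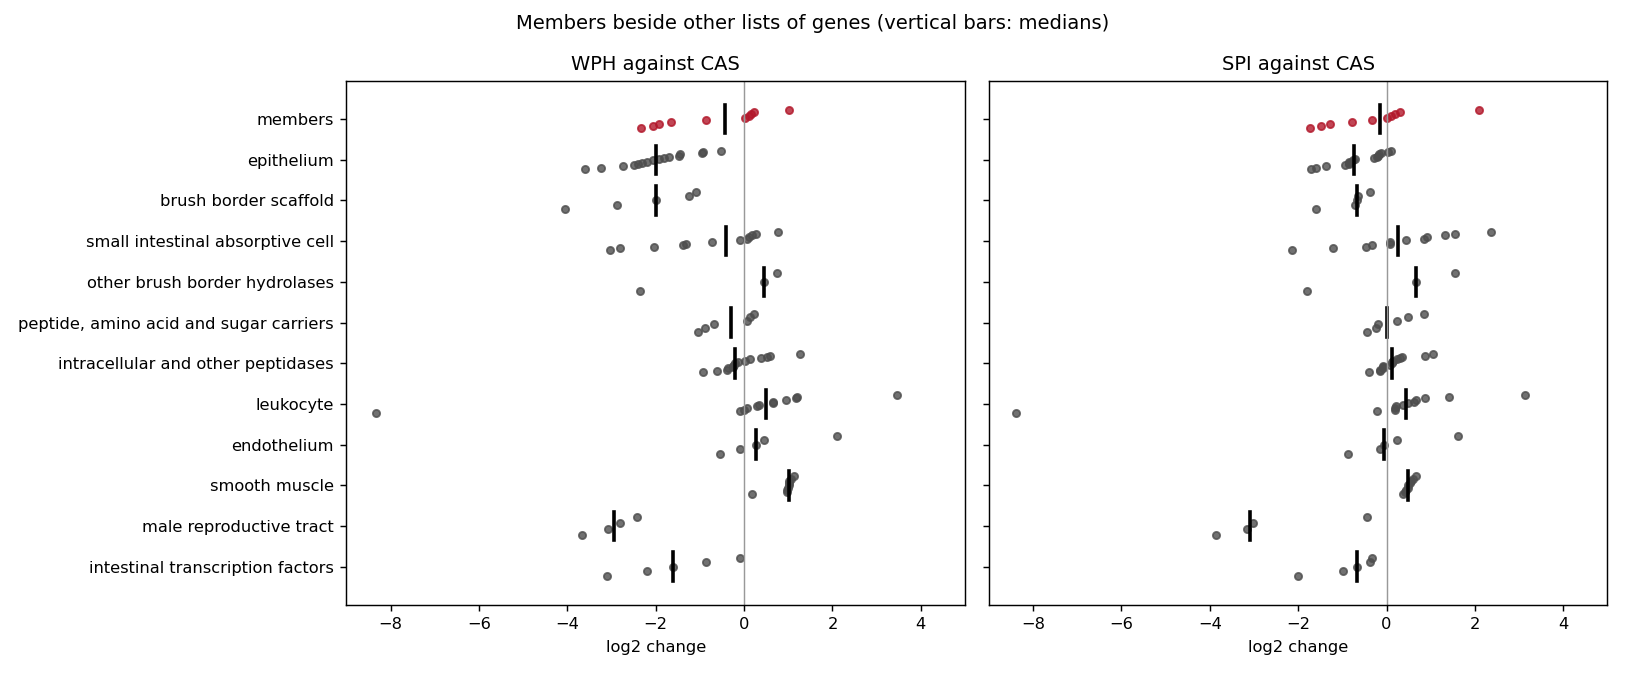
Log2 change of each tested probe set of the brush border enzymes (top row) and of the tested genes of other lists, with WPH (left) and with SPI (right) against CAS, and with medians as vertical bars. The enzymes spread from the level of the epithelial list, with a median of -1.99 with WPH, to values above 0, and the smooth muscle list lies to the right at medians of 1.01 and 0.50.

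The transcripts whose signals ran most closely with Mep1a over the 9 arrays were Ugt8, Klf4, Kcnk1, Aqp3 and Lgals3, at Pearson correlations of 0.988 to 0.991 with the probe set S43408_g_at. Klf4, an epithelial transcription factor, averaged 4666 for CAS, 2091 for SPI and 1513 for WPH on L26292_at, and the water channel Aqp3 2120.3, 513 and 271. For Mep1b they were Psat1, Myl12b, Emp1, Efna1 and Hsd11b2, at 0.983 to 0.986. Psat1, an enzyme of serine synthesis, averaged 1325 for CAS, 328 for SPI and 266 for WPH, and Hsd11b2, which inactivates corticosterone, 1819, 877 and 606. The arrays of a diet share 1 RNA pool, so these correlations mainly rank how well 3 diet means match and carry no p.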

How the data were processed

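Signals of 9 RG_U34A arrays, 3 a diet, were used. The authors computed the deposited values with MAS 5.0 from scanned images as intensity on a linear scale, with every array scaled to a common target, and the table holds no detection calls. Signals under 0.1 were set to 0.1 and changed to log2. Beside 59 Affymetrix controls the table holds 8740 probe sets, of which 5606 had a mean of 100 or more under any diet and entered 1 fit of diet (limma 3.58.1, R 4.3.3, eBayes with trend), and p-values were adjusted over all of them by the method of Benjamini and Hochberg. The code was tested on simulated data. Folds are ratios of mean signals, and none is given where the arrays of both diets were under 100. The number of arrays limits the precision.

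The platform annotation gave 1 symbol to 7018 probe sets, several to 308 and none to 1473. All 10 member symbols matched RefSeq by gene ID. Members, lists and motifs were chosen with earlier results of these data known. For genes of other lists the brightest probe set stands. The text names all members, from other lists up to 4 genes each, taken from those with the smallest adjusted p for WPH against CAS, and 5 genes most alike to each meprin subunit, and says where a gene was chosen after its values were seen, with untested genes named as such. Wash rounds are groups made from the clock times of hybridization in the instrument settings, where a gap of over 30 minutes starts a round. Python 3.11.15 with pandas 2.3.3 and matplotlib 3.10.9 was used for sequences and plots.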

Additional observations from a re-analysis of the deposited data

How the results depend on the processing

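The alternatives were a floor of 50, log2 of the signal plus 32, a minimum mean of 200 or none, quantile normalization or centring on the median, a fit with no trend, a fit of the compared diets alone, a block for wash round or for replicate number, a 2-fold minimum, the methods' t-test, and leaving out each array in turn. Comparison within a wash round was added after the data were seen. Of 13 log2 changes of member probe sets past the threshold, 12 kept their direction and stayed past it under all 21 alternatives with a test. The exception was Dpp4 for SPI against CAS with wash round as a block (limma adjusted p = 0.255). The changes of Anpep among the 13 were on M25073_at, which passed the minimum through SPI alone. A 2-fold minimum took out Dpp4 with both diets and S43408_g_at of Mep1a between SPI and WPH. The number of member probe sets higher with SPI than with CAS went from 1 to 2 without a filter, through L25926_at of Si, whose CAS and WPH signals were 2.1 to 4.1 and carry no order, and that higher with SPI than with WPH went from 3 to 5 with the minimum at 200, through S43408_at of Mep1a and Mep1b (limma adjusted p = 0.0487 and 0.048). For SPI against WPH, S43408_at also passed without CAS replicate 2, CAS replicate 3 or WPH replicate 1, and Mep1b without SPI replicate 3 (limma adjusted p = 0.0111) or in the fit blocked on wash round (0.0404). Ace with SPI passed only by the methods' t-test before adjustment.

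Leaving out single arrays gave 0 to 1 higher with WPH than with CAS, the 1 being Lct without WPH replicate 1, and 3 to 4 higher with SPI than with WPH. It turned the sign of changes that had not passed the threshold, with ranges of -0.38 to 0.32 for Anpep on M25073_at with WPH against CAS, -0.16 to 0.12 for Lct on X56747cds_at with SPI against CAS, and, for SPI against WPH, -0.065 to 0.00067 for Anpep on AF039891_s_at, -0.13 to 0.12 for Alpi and -0.28 to 0.0034 for Lct on X56747cds_at. With wash round as a block the log2 change with SPI against CAS was -0.18 for Lct on L04635exon_s_at and -0.053 on X56747cds_at. The cause was not tested. The replicate numbers of the titles did not pair the arrays, since deviations of arrays with the same number correlated at -0.275 to 0.237 over 9 pairs. With the replicate number as a block all calls of member probe sets stayed, such as -2.32 for Mep1b with WPH (limma adjusted p = 3.27e-05).

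With 1 pool of 7 rats a diet, differences between rats were not measured, and signals under about 100 carry no order.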
